A study of Mus musculus with 12 samples.

Results

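The protein subunits of the oxidative phosphorylation (OXPHOS) machinery were followed in bulk RNAseq data of mouse liver after an acute iron load. Members were all protein-coding rows of the deposited counts whose symbol begins with Nduf (other than Ndufaf), Uqcr, Cox4 to Cox8, Atp5, mt-Nd, mt-Co, mt-Cytb or mt-Atp, or is Cyc1 or Sdha to Sdhd. This rule gave 104 members among 55414 rows, of which 21627 were protein-coding. Of the members, 91 are encoded in the nucleus and 13 in the mitochondrial genome. Complex I had 45 members, complex II 4, complex III 10, complex IV 24 and complex V 21. Ndufa4 and Ndufa4l2, named after complex I, were counted with complex IV, where the Ndufa4 protein is known to sit.

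OXPHOS takes place in the inner mitochondrial membrane. Complexes I (NADH dehydrogenase) and II (succinate dehydrogenase) feed electrons to ubiquinone, complex III passes them to cytochrome c, and complex IV (cytochrome c oxidase) passes them to oxygen, while complex V (ATP synthase) uses the resulting proton gradient to make ATP. Many electron-carrying subunits hold iron, as iron-sulfur clusters or as haem. All complexes other than complex II combine nuclear subunits with subunits read from mitochondrial DNA, whose genes are copied as long transcripts of several genes from either strand and then cut apart.

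The 12 libraries came from female C57BL/6J mice (genotype C57Bl/6J in the labels) of 8 to 12 weeks, with 3 mice in each of 4 groups. The first injection was 0.9% NaCl or 300 mg/kg FeSO4, and 6 h later PBS or 10 mg/kg dexamethasone (DEX, a synthetic agonist of the glucocorticoid receptor) was given. All livers were collected 2 h after that, 8 h after the start, so the groups were NaCl/PBS, NaCl/DEX, FeSO4/PBS and FeSO4/DEX. The dose of FeSO4 was a lethal one in the study. The labels number the mice and do not say whether they were treated together.

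Library totals lay between 16335651 and 23827340 reads on genes. All 8 hepatocyte markers were detected, with summed normalized counts of 2111754 to 2493583 in NaCl/PBS mice and 2793663 to 3147160 in FeSO4/PBS mice. FeSO4/PBS mouse 1 stood apart from its group: it differed from mice 2 and 3 by a chi-square per gene of 89.5 and 71.4, against 18.3 to 37 for all other pairs of mice within a group. Called values of FeSO4/PBS against NaCl/PBS mice that lost their call or moved by over 1.5 times without this mouse are given both ways. This holds for the named members and complexes and for the lists of genes that build and control them. Values that were not called are given both ways only in part. TMM factors, edgeR's correction of the library totals, were 1.14 to 1.16 in NaCl/PBS mice and 0.90 to 0.95 in FeSO4/PBS mice. Counts scaled by the library total alone therefore gave other values, which are printed beside the main counts and medians and beside some of the single genes. In bulk liver, fewer cells of a type and less RNA per cell cannot be told apart.

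Of the 104 members, 90 passed edgeR's filter on low counts and were tested. Among the 14 others were 8 nuclear rows: the tissue isoforms Cox4i2, Cox6a2, Cox6b2, Cox7b2, Cox8b and Cox8c, the row Ndufb11b, and a second Atp5po row without reads. The other 6 were mitochondrially encoded, namely mt-Nd3, mt-Nd4l, mt-Co2, mt-Co3, mt-Atp6 and mt-Atp8, which code for subunits of complexes I, IV and V. They had between 0 and 5 reads each in a library, while mt-Co1 had 4240742 reads over the 12 libraries.

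The 6 unread genes share their sequence with the nuclear genome. The authors counted uniquely mapped reads. Every 100-base window of mt-Nd4l, mt-Co2, mt-Co3, mt-Atp6 and mt-Atp8, and 98.8% of those of mt-Nd3, was found at a second place in GRCm39, on chromosome 1. The windows copied there ran from base 6394 to base 11042 of the mitochondrial genome, and the copy lies on the minus strand at chr1:24650616-24655265. Over this stretch, 99.96% of the aligned bases were identical, with 1 mismatch and 1 gap. The 7 genes annotated on the copy had 180 reads in all. The first 100 bases of mt-Atp8 show the identity; the upper line was read from the mitochondrial genome (chrM:7766-7865, plus strand) and the lower line from chromosome 1 (chr1:24653794-24653893, minus strand), both of GRCm39.
mt-Atp8: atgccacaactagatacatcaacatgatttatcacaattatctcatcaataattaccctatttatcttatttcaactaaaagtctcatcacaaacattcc
chromosome 1 copy: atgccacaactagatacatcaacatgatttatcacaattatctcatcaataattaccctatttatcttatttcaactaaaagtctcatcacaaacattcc
No level is given for these 6 genes. Of the 7 mitochondrial members with reads, mt-Nd4 had 60.75% of its windows at a second place and mt-Co1 30.84%, mt-Nd2 had 3.19%, and mt-Nd1, mt-Nd5, mt-Nd6 and mt-Cytb had none.

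**Figure D1:**
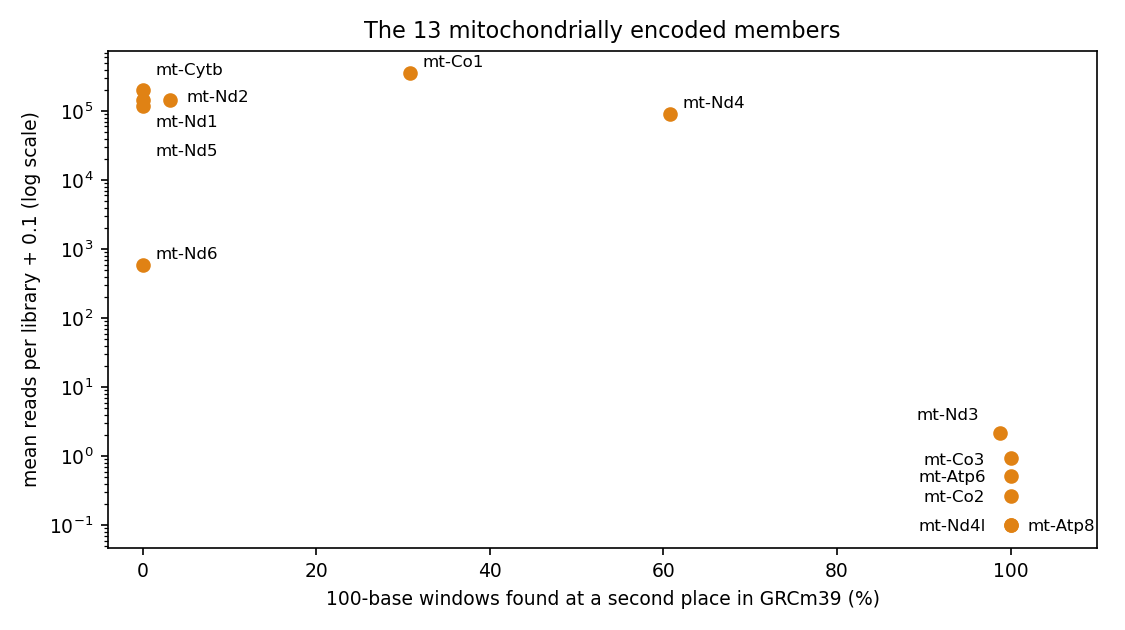
Mean reads per library plus 0.1 (log axis) for the 13 mitochondrially encoded members against the percentage of their 100-base windows that occur a second time in GRCm39; each point is a gene. The 6 genes at 98.8% to 100% had hardly any read, while mt-Nd4 with 60.75% and mt-Co1 with 30.84% were read in all libraries.

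Promoters of the nuclear members were looked at because these genes moved together after FeSO4 (given further on). The RefSeq table of promoters (GRCm38.p6, 250 bases before to 50 after the start) matched 69 nuclear members, by symbol or by an older symbol. They were searched on both strands for the core letters of 4 factors known for OXPHOS genes. The NRF1 core (GCGCANGC) was present in 22 of 69 (31.9%), against 10.1% of 27025 promoters in the table. The ETS core bound by GABP (CCGGAAG) was present in 15 (21.7%, against 9.12%), the YY1 core (AAGATGGC) in 9 (13%, against 2.88%) and the ERR element (TCAAGGTCA) in 2 (2.9%, against 0.407%). Members with and without the NRF1 core had the same median LFC (log2 fold change) after FeSO4, 0.41 in 22 and in 44 tested members. For each complex, the promoter of the called nuclear member with the highest LFC after FeSO4 is printed, since these genes carry the values that follow. Capitals mark NRF1 and ETS cores. The positions are chr2:36049289-36049588 for Ndufa8, chr11:4704295-4704594 for Uqcr10, chr7:30626065-30626364 for Cox6b1 and chr9:44920693-44920992 for Atp5mg, all on the minus strand, and chr4:140961021-140961320 on the plus strand for Sdhb.
Ndufa8: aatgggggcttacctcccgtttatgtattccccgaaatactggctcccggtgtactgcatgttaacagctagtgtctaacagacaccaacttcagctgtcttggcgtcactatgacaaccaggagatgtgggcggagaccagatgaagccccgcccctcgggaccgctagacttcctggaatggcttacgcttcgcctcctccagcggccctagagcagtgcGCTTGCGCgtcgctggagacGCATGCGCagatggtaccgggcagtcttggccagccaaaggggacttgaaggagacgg
Sdhb: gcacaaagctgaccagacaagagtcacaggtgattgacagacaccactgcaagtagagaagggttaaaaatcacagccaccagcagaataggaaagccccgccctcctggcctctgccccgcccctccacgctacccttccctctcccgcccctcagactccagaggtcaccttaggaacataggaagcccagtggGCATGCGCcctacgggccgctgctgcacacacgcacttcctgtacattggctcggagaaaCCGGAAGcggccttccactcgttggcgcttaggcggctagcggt
Uqcr10: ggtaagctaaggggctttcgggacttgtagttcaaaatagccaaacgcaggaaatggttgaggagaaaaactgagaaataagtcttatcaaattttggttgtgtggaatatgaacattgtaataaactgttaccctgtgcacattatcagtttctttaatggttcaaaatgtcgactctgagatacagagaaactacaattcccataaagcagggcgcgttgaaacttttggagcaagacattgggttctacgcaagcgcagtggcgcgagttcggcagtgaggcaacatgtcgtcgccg
Cox6b1: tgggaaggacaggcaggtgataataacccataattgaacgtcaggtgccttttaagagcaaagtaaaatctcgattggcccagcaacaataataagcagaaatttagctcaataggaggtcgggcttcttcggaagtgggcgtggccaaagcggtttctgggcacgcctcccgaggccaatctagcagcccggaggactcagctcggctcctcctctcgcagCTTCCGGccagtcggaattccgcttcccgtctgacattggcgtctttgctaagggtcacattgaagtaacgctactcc
Atp5mg: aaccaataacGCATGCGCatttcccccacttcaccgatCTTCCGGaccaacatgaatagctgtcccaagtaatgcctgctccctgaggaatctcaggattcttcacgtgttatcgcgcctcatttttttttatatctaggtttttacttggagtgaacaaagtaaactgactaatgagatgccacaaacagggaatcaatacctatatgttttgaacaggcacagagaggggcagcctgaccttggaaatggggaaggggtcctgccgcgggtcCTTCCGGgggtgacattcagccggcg
The promoter of Ndufa8 holds 2 NRF1 cores, that of Sdhb 1 NRF1 and 1 ETS core, that of Cox6b1 1 ETS core, and that of Atp5mg 1 NRF1 and 2 ETS cores. None of the 4 motifs was found in this window of Uqcr10.

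Levels in NaCl/PBS mice were compared per length, as the normalized count per 1000 windows that occur once in the genome. On this scale mt-Co1 stood first with 321628, followed by mt-Cytb with 177279, mt-Nd4 with 165929, mt-Nd2 with 127719, mt-Nd1 with 119101 and mt-Nd5 with 61616. The nuclear members followed at a distance. The highest were Atp5f1b, the catalytic beta subunit of ATP synthase, with 9986, Ndufa4 with 7272 and Cox7c with 6978. mt-Nd6, the only member read from the other mitochondrial strand, had 1434. Its mRNA is known to carry little or no poly(A) tail, and the libraries were made from poly(A) RNA.

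The effect of iron was first studied without DEX, in FeSO4/PBS against NaCl/PBS mice. After FeSO4, 59 of the 90 tested members were higher and 1 was lower (edgeR FDR of 0.05 or less), whereas 27.2% of all 13857 tested genes were higher and 27.3% lower. The median LFC of the members was 0.40, against -0.02 over all genes, and 87 of 90 members had an LFC above 0. The rises were small, with only Atp5mg beyond an LFC of 1. In 65 of 90 members, each FeSO4/PBS value exceeded each NaCl/PBS value, which held for 29% of all genes.

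The size of this shift depended on the scaling and on the mice. Scaled by the library total alone, 7 members were higher and 3 lower, and the median LFC was 0.07 for the members and -0.34 for all genes. The members lay 0.41 above the median gene under both scalings. This follows by construction, since a scaling moves all genes by nearly the same amount. The nuclear members took between 0.929% and 0.97% of the reads in the controls, while the shares after FeSO4 were 1.11%, 0.962% and 0.917% and overlapped them. Without FeSO4/PBS mouse 1, 40 members were higher, all of them among the 59, and the median was 0.27, which is 0.30 above that of all genes. Without NaCl/PBS mouse 3, 39 were higher, again all among the 59.

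**Figure D2:**
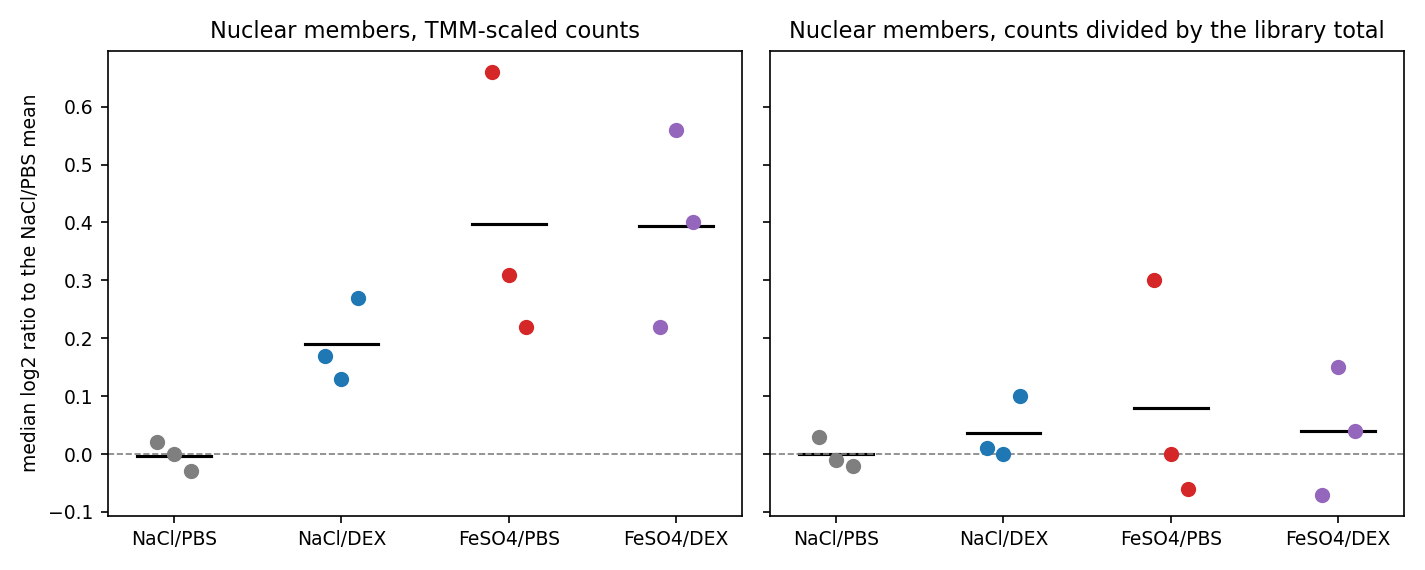
Median over the 83 tested nuclear members of the log2 ratio of a mouse to the NaCl/PBS mean, per mouse (points) and as the mean of 3 mice (bars), from TMM-scaled counts on the left and from counts divided by the library total on the right. On the left FeSO4/PBS sits at 0.66, 0.31 and 0.22 and NaCl/PBS between -0.03 and 0.02; on the right the groups overlap.

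Among the nuclear members, complex IV had the highest median LFC, with 0.53 over 15 tested genes. Complex V followed with 0.46 over 18, complex III with 0.39 over 9, complex I with 0.35 over 37 and complex II with 0.23 over 4. Of these nuclear members, 12 of 15 were higher for complex IV, 14 of 18 for complex V, 8 of 9 for complex III, 21 of 37 for complex I and 2 of 4 for complex II, and none was lower. At an unadjusted p under 0.05 none of the nuclear members was lower either, nor was any under DESeq2. Over all genes, 4151 of 13857 were lower at an unadjusted p under 0.05. With the library total alone the medians were 0.20, 0.14, 0.07, 0.02 and -0.09, so that complex II turned its direction. The order could hardly differ there, since that scaling moves all genes of a comparison by nearly the same amount. Without FeSO4/PBS mouse 1 the medians were 0.38, 0.33, 0.26, 0.23 and 0.16. The members called higher were then 11, 10, 5, 12 and 0 for complexes IV, V, III, I and II. The differences between complexes are given as a description, with no test, since genes are not replicates.

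**Figure D3:**
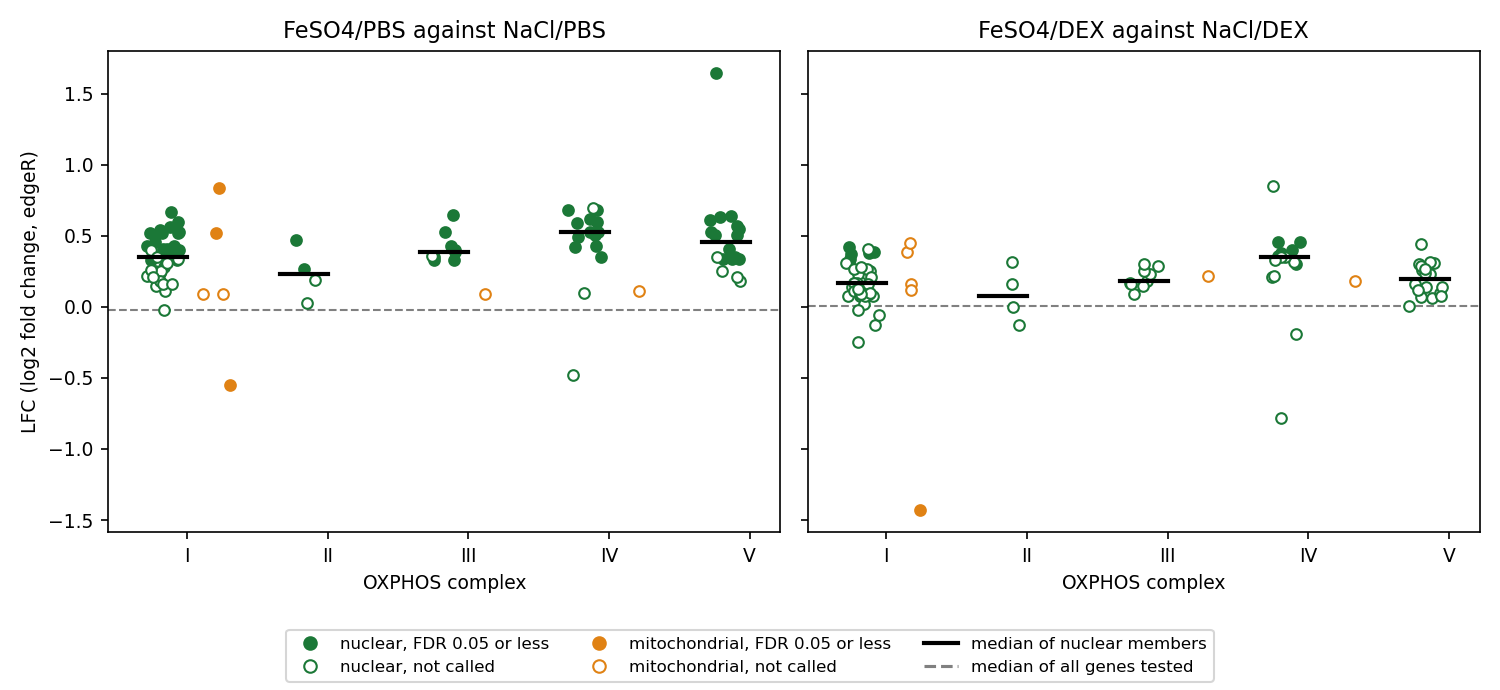
LFC of each tested member by complex, in mice without DEX (left) and with DEX (right); filled points had an edgeR FDR of 0.05 or less, bars are medians of nuclear members and the dashed line is the median of all tested genes. Without DEX the nuclear medians run from 0.23 for complex II to 0.53 for complex IV and Atp5mg stands alone at 1.65, while with the library total alone the same medians run from -0.09 to 0.20.

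In complex I, Ndufa8, an accessory subunit, had the largest rise among the nuclear members of the complex. It had 979, 1263 and 1089 normalized counts in NaCl/PBS mice and 2441, 1535 and 1320 in FeSO4/PBS mice. All were above the controls after FeSO4, with mouse 1 far above the other two. The LFC was 0.67 (SE 0.19, edgeR FDR 0.0074), and 0.37 without FeSO4/PBS mouse 1 (edgeR FDR 0.025). Ndufa12 (LFC 0.60) and Ndufc2 (LFC 0.56), both accessory subunits, came next. Among the smaller rises that were called was that of Ndufa9, an accessory subunit (LFC 0.28, edgeR FDR 0.047), which turned to -0.04 with the library total alone and lost its call without FeSO4/PBS mouse 1 (LFC 0.24, edgeR FDR 0.094). Among the iron-sulfur subunits, Ndufv1 had an LFC of 0.41 and Ndufv2 of 0.33, and without that mouse 0.27 and 0.19, the second no longer called. Ndufs7 (LFC 0.31, edgeR FDR 0.19) and Ndufs8 (LFC 0.16, edgeR FDR 0.32) did not pass the test, and had LFCs of 0.04 and 0.03 without FeSO4/PBS mouse 1.

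Ndufs1, the largest iron-sulfur subunit of complex I, did not pass the test. Its counts were 2398, 2365 and 2509 in NaCl/PBS mice and 2516, 2419 and 2219 in FeSO4/PBS mice. The groups overlapped, with an LFC of -0.02 (SE 0.10, edgeR FDR 0.86). It was lower with the library total alone, with an LFC of -0.34 (edgeR FDR 0.0075). Of the 12 tested core subunits of complex I, those shared with bacteria, 6 were higher and 1 was lower, with a median LFC of 0.28, and 3 and 1 with a median of 0.19 without FeSO4/PBS mouse 1.

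Complex II has 4 subunits, all nuclear. Sdhb, its iron-sulfur subunit, had 2990, 2573 and 2582 normalized counts in NaCl/PBS mice and 4595, 3528 and 3187 in FeSO4/PBS mice. The FeSO4/PBS mice were all above the controls (LFC 0.47, SE 0.16, edgeR FDR 0.024), but the call was lost without FeSO4/PBS mouse 1 (LFC 0.31, edgeR FDR 0.094) and without NaCl/PBS mouse 2 or 3. The membrane anchor Sdhd also rose (LFC 0.27), with an LFC of -0.05 under the library total alone and of 0.20, not called, without FeSO4/PBS mouse 1, and the anchor Sdhc did not pass the test (LFC 0.19, edgeR FDR 0.13). Sdha, the flavoprotein that oxidizes succinate, had 8947, 8587 and 8511 counts in controls and 8073, 9297 and 9220 after FeSO4. These overlap, and the LFC was 0.03 (SE 0.10, edgeR FDR 0.82), but -0.29 and called lower with the library total alone (edgeR FDR 0.032).

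In complex III, Uqcr10, a small accessory subunit, had the largest LFC. Its counts were 972, 958 and 973 in NaCl/PBS mice and 2000, 1319 and 1240 in FeSO4/PBS mice. The controls were close to each other and every iron-loaded mouse lay above them; the LFC was 0.65 (SE 0.16, edgeR FDR 0.0034) and 0.41 without FeSO4/PBS mouse 1. Cyc1, which holds the haem of cytochrome c1, rose with an LFC of 0.53, the core protein Uqcrc1 with 0.43, and the Rieske iron-sulfur protein Uqcrfs1 with 0.33. Uqcrq and the core protein Uqcrc2 rose with 0.35 and 0.33. Without FeSO4/PBS mouse 1 the calls of Uqcrc1 (LFC 0.26), Uqcrfs1 (LFC 0.25) and Uqcrq (LFC 0.24) were lost. With all mice, only Uqcr11 among the nuclear members was not called (LFC 0.36, edgeR FDR 0.063), and its LFC was 0.16 without that mouse. The mitochondrially encoded mt-Cytb, cytochrome b of the same complex, had an LFC of 0.09 (edgeR FDR 0.66), and of 0.16 without FeSO4/PBS mouse 1.

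In complex IV, Cox5a and Cox6b1 had the largest rises that were called, both with an LFC of 0.68. Cox5a had 1941, 1981 and 2025 counts in NaCl/PBS mice and 3788, 2969 and 2789 in FeSO4/PBS mice (SE 0.13, edgeR FDR 0.00057). Cox6b1 had 2053, 1948 and 1941 against 3847, 3035 and 2659 (SE 0.14, edgeR FDR 0.0011). Neither gene showed an overlap, and both kept their call in each fit that left out a mouse and with the library total alone (LFC 0.36 for both). Cox6c and Cox4i1 also kept theirs under that scaling. Ndufa4 showed the smallest LFC among the called members of complex IV, with 0.35, and lost its call without FeSO4/PBS mouse 1 (LFC 0.27, edgeR FDR 0.052).

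Several complex IV subunits exist as isoforms for particular tissues. The liver or general forms Cox4i1, Cox6a1, Cox6b1, Cox7a2, Cox7b and Cox8a had LFCs of 0.42 to 0.68 and were all called. So was Cox7a2l, which was listed with them as a regulatory member. All of these genes were also called without FeSO4/PBS mouse 1, where the LFC of Cox7a2l went from 0.49 to 0.31. With the library total alone, only Cox4i1 (LFC 0.28) and Cox6b1 (LFC 0.36) of these genes stayed called. The muscle forms Cox6a2 and Cox8b stayed at or below 1.36 normalized counts in all mice. The striated muscle markers Ckm, Acta1, Myh1 and Myh4 had no read in any library. Cox7a1, the heart and muscle form of Cox7a2, had 7.91 to 26.2 counts over the 12 mice, and its LFC of 0.70 did not pass the test (SE 0.46, edgeR FDR 0.22). Ndufa4l2, known as a hypoxia-induced relative of Ndufa4, had 20.1, 15.9 and 23.7 counts in NaCl/PBS mice and 13.1, 12.2 and 17.9 in FeSO4/PBS mice, an LFC of -0.48 that did not pass the test (edgeR FDR 0.28).

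In complex V, the catalytic subunits Atp5f1a and Atp5f1b rose with an LFC of 0.55 and 0.34. Atp5f1e, the small epsilon subunit, rose with 0.34 and lost its call without FeSO4/PBS mouse 1 (LFC 0.21, edgeR FDR 0.16). The membrane ring subunit gene Atp5mc3 had an LFC of 0.64 and Atp5po, part of the peripheral stalk, of 0.63. Atp5mc2, which codes for the same ring subunit, had an LFC of 0.34 and lost its call without FeSO4/PBS mouse 1 (LFC 0.28, edgeR FDR 0.09). Atp5if1, the inhibitor that blocks ATP hydrolysis by the enzyme, had 282, 252 and 273 counts in NaCl/PBS mice and 408, 295 and 210 in FeSO4/PBS mice. These overlap, and the LFC was 0.18 (SE 0.21, edgeR FDR 0.47) and -0.08 without FeSO4/PBS mouse 1.

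Atp5mg, a small subunit of the membrane part of ATP synthase (ENSMUSG00000038717, GRCm39 chr9:44800118-44832055, minus strand), showed the largest rise of all members. It had 70.5, 88.8 and 96.5 normalized counts in NaCl/PBS mice and 202, 259 and 344 in FeSO4/PBS mice. At an LFC of 1.65 (SE 0.23, edgeR FDR 4.3e-05), it was 3.14-fold higher, and it remained called in all 12 fits that left out a mouse and with the library total alone (LFC 1.34). Reads of this gene are hard to place, since 57.43% of the windows of its transcript also occur on chromosome 5. Between 61.76% and 87.5% of the windows were copied likewise in Atp5mc2, Cox7c, Atp5mc1 and Ndufs5, so the counts of these genes are uncertain too.

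Iron-containing subunits were compared as lists. Of the 7 subunits with iron-sulfur clusters, 4 were higher after FeSO4 (Ndufv1, Ndufv2, Sdhb and Uqcrfs1) and none was lower, with a median LFC of 0.33. These are 57.1%, against 65.6% of all tested members and 27.2% of all genes. Of the 5 subunits that bind haem, Sdhd and Cyc1 were higher (40%), with a median LFC of 0.19, against 0.40 over all members. Without FeSO4/PBS mouse 1, 1 of each list was higher, Ndufv1 and Cyc1, with medians of 0.19 and 0.20. Under the library total alone, the iron-sulfur list had a median of 0.00 with none higher and Ndufs1 lower, and the haem list turned to a median of -0.13 with none called.

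Of the 7 tested mitochondrially encoded members, mt-Nd1 and mt-Nd2 were higher (28.6%) and mt-Nd6 was lower (14.3%), against 27.2% and 27.3% of all genes. Their median LFC was 0.09, against 0.40 for the nuclear members. Without FeSO4/PBS mouse 1 these medians were 0.22 and 0.27, so the gap between both genomes was small without that mouse, and it was not tested. The mitochondrial median turned to -0.22 with the library total alone. The 13 members together took 5.34%, 5.51% and 5.12% of all reads in NaCl/PBS mice and 4.3%, 5.9% and 5.16% in FeSO4/PBS mice. These shares overlap, and FeSO4/PBS mouse 1, which had the highest nuclear share, had the lowest mitochondrial share.

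mt-Nd1 (chrM:2751-3707) and mt-Nd2 (chrM:3914-4951) are the first protein genes after the ribosomal RNA genes, on the strand that holds most mitochondrial genes. mt-Nd1 had 102422, 111672 and 92472 counts in NaCl/PBS mice and 179455, 199973 and 170319 in FeSO4/PBS mice. The groups were well apart (LFC 0.84, SE 0.17, edgeR FDR 0.00098), also with the library total alone (LFC 0.52, edgeR FDR 0.01). mt-Nd2 had 113365, 124666 and 110258 against 138291, 193894 and 166920, with an LFC of 0.52 (SE 0.18, edgeR FDR 0.024). Its call was lost with the library total alone (LFC 0.20, edgeR FDR 0.31) and without FeSO4/PBS mouse 2 or NaCl/PBS mouse 1 or 3. Further along the same strand, mt-Co1, mt-Nd4, mt-Nd5 and mt-Cytb had LFCs of 0.09 to 0.11 with SEs of 0.15 to 0.21, and none was called. Without FeSO4/PBS mouse 1 these LFCs were 0.22, 0.13, 0.31 and 0.16, again with none called. mt-Nd5 had 76380, 141382 and 122158 counts in FeSO4/PBS mice and 101356 to 113303 in NaCl/PBS mice.

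mt-Nd6 (chrM:13552-14070, the opposite strand), a membrane subunit of complex I, was the only member that fell. It had 623, 521 and 663 normalized counts in NaCl/PBS mice and 434, 435 and 360 in FeSO4/PBS mice. All values after FeSO4 were below the controls (LFC -0.55, SE 0.16, edgeR FDR 0.01), in each fit without a mouse and with the library total alone (LFC -0.88). Its end overlaps that of mt-Nd5 on the other strand. The kit keeps strand, but the strand setting of the counting is not given in the sources used here, so reads from the 2 strands may not have been told apart.

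**Figure D4:**
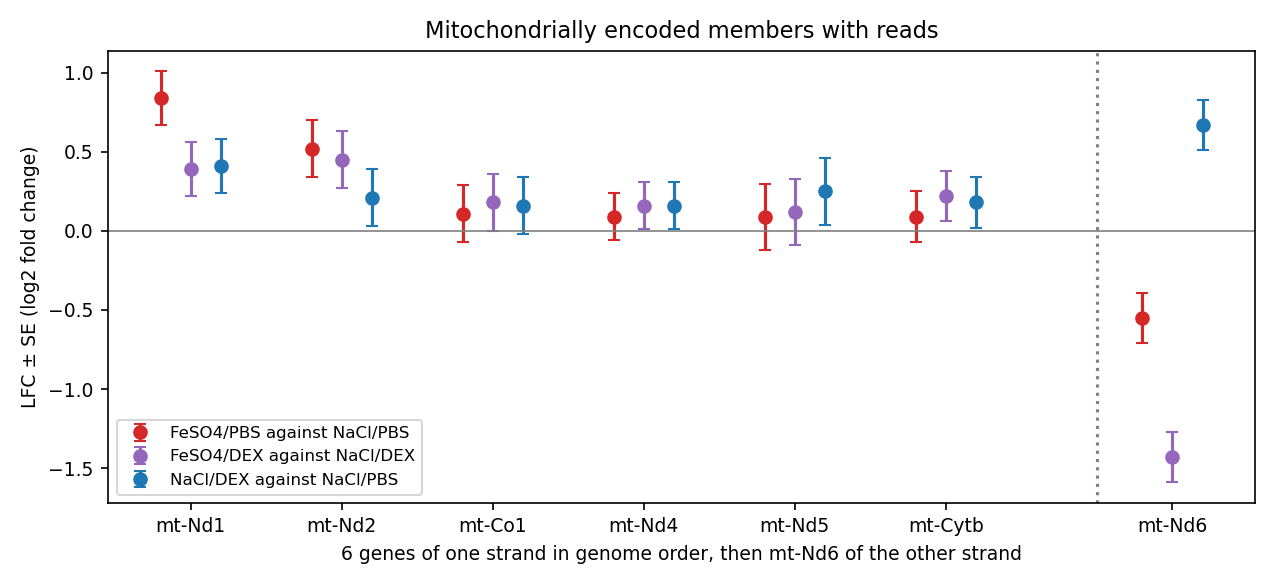
LFC with its standard error for the 7 mitochondrial members with reads, in 3 comparisons; the 6 genes left of the dotted line are in genome order on one strand. After FeSO4 without DEX the values are 0.84 at mt-Nd1, 0.52 at mt-Nd2, 0.09 to 0.11 at the next 4 genes and -0.55 at mt-Nd6. Those 4 genes are below 0 with the library total alone, and at 0.13 to 0.31 without FeSO4/PBS mouse 1.

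The response to DEX was then studied in mice without iron. Only 2 of the 90 members were called in NaCl/DEX against NaCl/PBS mice, both higher, whereas 6.5% of all genes were higher and 7.15% lower. No member was lower, also at an unadjusted p under 0.05 and under DESeq2, which called 4 members higher. Over all genes, 2073 of 13857 were lower at an unadjusted p under 0.05. The LFCs were small but mostly of the same sign, with 87 of 90 above 0 and a median of 0.19 against -0.02 for all genes. In 54 of 90 members each NaCl/DEX value exceeded each NaCl/PBS value, which held for 17.6% of all genes. The median of the members was 0.04 and that of all genes -0.18 with the library total alone. Fitted on the libraries of this comparison alone, 12 members were called, and 7 were called without FeSO4/PBS mouse 1, which is in neither group but enters the shared estimate of the spread. The count was 1 without NaCl/DEX mouse 1, 2 or 3 or NaCl/PBS mouse 1 or 2.

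The 2 called members were Atp5mg and mt-Nd6. Atp5mg had 157, 184 and 128 counts in NaCl/DEX mice, above the 70.5 to 96.5 of NaCl/PBS mice (LFC 0.88, SE 0.23, edgeR FDR 0.021). The call was lost with the library total alone (edgeR FDR 0.051) and without NaCl/DEX mouse 1 or 2 or NaCl/PBS mouse 1. mt-Nd6 had 1013, 844 and 1010 counts, above the 521 to 663 of NaCl/PBS mice (LFC 0.67, SE 0.16, edgeR FDR 0.013), and lost its call without NaCl/DEX mouse 3 or NaCl/PBS mouse 2 (highest edgeR FDR 0.052). Other mitochondrial members did not pass the test, with mt-Nd1 at an LFC of 0.41 (edgeR FDR 0.14).

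In iron-loaded mice, no member passed the test for DEX. Of the 90 members, 0 were called by edgeR in FeSO4/DEX against FeSO4/PBS mice, 0 had an unadjusted p under 0.05, and DESeq2 called 0. Over all genes 0% were called, and 900 of 13857 had an unadjusted p under 0.05. The median LFC of the members was -0.02, and their LFCs ran from -0.66 to 0.45. Mitochondrial reads made up 4.47%, 6.7% and 5.91% in FeSO4/DEX mice and 5.53%, 5.13% and 5.96% in NaCl/DEX mice, which overlap.

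When both groups had received DEX, the iron effect on the members was smaller in number. In FeSO4/DEX against NaCl/DEX mice, 12 members were higher and 1 was lower, whereas 22.4% of all genes were higher and 20.9% lower. The median LFC was 0.21 against 0.01 for all genes. The 12 belonged to complex I (Ndufa1, Ndufa3, Ndufa10, Ndufc2, Ndufs6 and Ndufv3) and complex IV (Cox4i1, Cox6a1, Cox6c, Cox7a2l, Cox7c and Ndufa4), with LFCs of 0.30 to 0.46. Complex IV had a nuclear median LFC of 0.35, complex V of 0.19, complex III of 0.18, complex I of 0.17 and complex II of 0.08. The count varied with the scaling and the mice. No member was higher and 4 were lower with the library total alone. The count of higher members was 26 without FeSO4/DEX mouse 1, 0 without mouse 2 and 2 without mouse 3, 1 and 2 without NaCl/DEX mouse 1 and 2, and 7, 6 and 5 without NaCl/PBS mouse 1, 2 and 3. A second member was lower without FeSO4/DEX mouse 3, FeSO4/PBS mouse 1 or 3, or NaCl/DEX mouse 2.

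The member that fell was again mt-Nd6, with 262, 408 and 398 counts in FeSO4/DEX mice against 844 to 1013 in NaCl/DEX mice. The groups were far apart (LFC -1.43, SE 0.16, edgeR FDR 1.2e-05), in each fit that left out a mouse and with the library total alone (LFC -1.63). mt-Nd1 (LFC 0.39, edgeR FDR 0.086) and mt-Nd2 (LFC 0.45, edgeR FDR 0.057) did not pass the test here. Ndufs1, with 2975, 2440 and 2747 counts in NaCl/DEX mice and 2266, 2276 and 2322 in FeSO4/DEX mice, did not overlap between the groups, but its LFC of -0.25 missed the threshold (edgeR FDR 0.058). It was called lower with the library total alone (LFC -0.45, edgeR FDR 0.002).

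To see whether iron altered the DEX response, the difference between the DEX effects in FeSO4 and NaCl mice was tested (the interaction). Of the 90 members, 2 were called, both lower, and 6.18% of all genes were called in either direction. The LFCs of the others were mostly of the same sign, with 7 of 90 above 0 (7.78%, against 52.2% of all genes) and a median of -0.20 against 0.02. Without FeSO4/PBS mouse 1 the median was -0.12 with 18 above 0, and with the library total alone it was -0.07 with 24 above 0, against an all-gene median of 0.15. The called members were again Atp5mg (LFC -1.22, SE 0.32, edgeR FDR 0.039) and mt-Nd6 (LFC -0.88, SE 0.23, edgeR FDR 0.038). In FeSO4/DEX mice Atp5mg had 164, 215 and 258 counts, which overlap those of FeSO4/PBS mice, while no such overlap was seen between both groups without iron. For Atp5mg and mt-Nd6, the DEX effect was 0.88 and 0.67 in NaCl mice and -0.34 and -0.21 in FeSO4 mice. Both calls were near the threshold. That of Atp5mg held in 3 and that of mt-Nd6 in 6 of the 12 fits that left out a mouse; for mt-Nd6 it was lost without FeSO4/DEX mouse 1, FeSO4/PBS mouse 2, NaCl/DEX mouse 1 or 3, or NaCl/PBS mouse 1 or 2, and for Atp5mg it was kept without FeSO4/DEX mouse 3, FeSO4/PBS mouse 1 or NaCl/DEX mouse 3.

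**Figure D5:**
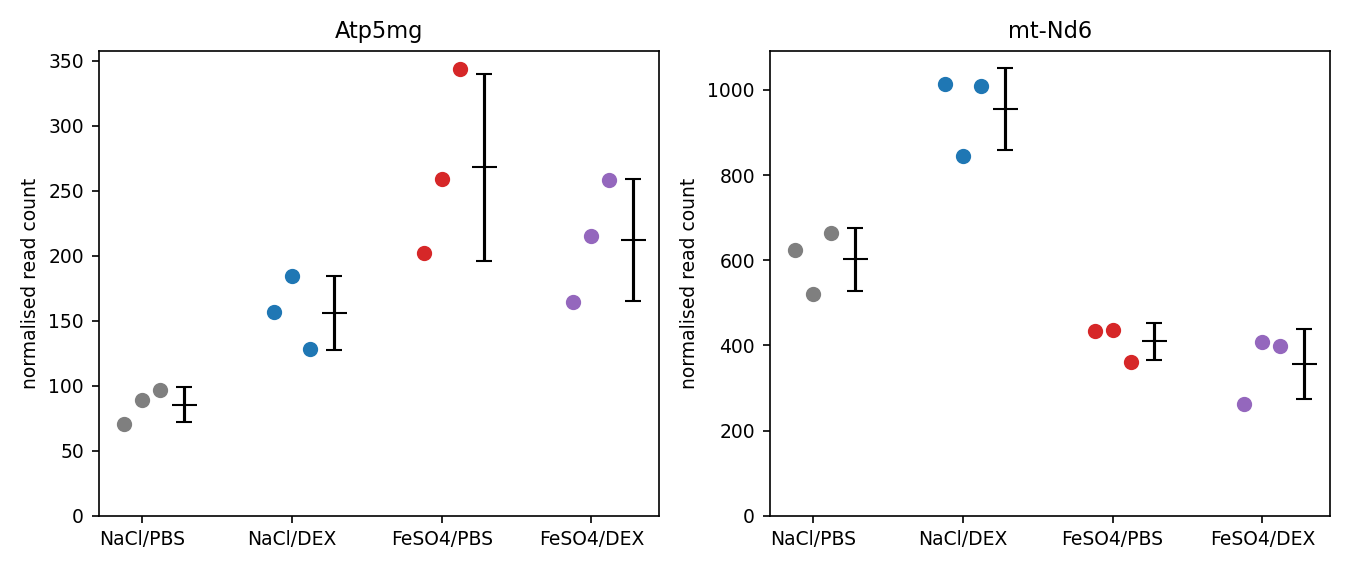
Normalized counts of Atp5mg (left) and mt-Nd6 (right) in each mouse, with the mean and SD of the 3 mice of a group beside the points. Atp5mg is lowest in NaCl/PBS mice (70.5 to 96.5) and mt-Nd6 is highest in NaCl/DEX mice (844 to 1013), and in both genes the FeSO4/DEX mice overlap the FeSO4/PBS mice.

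Genes that build and control the OXPHOS complexes were followed as well, by lists that hold no member. Of 55 tested assembly factors, which help to build the complexes without being part of them, 7 were higher and 19 were lower in FeSO4/PBS against NaCl/PBS mice, with a median LFC of -0.07 that was -0.22 without FeSO4/PBS mouse 1. Over all genes 27.2% were higher and 27.3% lower, and this background holds for each list that follows in this comparison. Sco2, which delivers copper to complex IV, had an LFC of 1.62, and Cox18 of 1.21. Cox10, which acts in the synthesis of haem a, had 1.37. Cox15, which acts later in that synthesis, had 505, 544 and 493 counts in NaCl/PBS mice and 375, 267 and 307 in FeSO4/PBS mice. Cox15 was lower without FeSO4/PBS mouse 1 (LFC -0.84, edgeR FDR 0.00017). The LFC of Cox10 was 0.83 without FeSO4/PBS mouse 1, which had 852 counts against 322 and 404 in mice 2 and 3. Sco2 had 97.1, 101 and 129 counts in NaCl/PBS mice and 329, 312 and 366 in FeSO4/PBS mice. The largest falls were those of Coa4 (LFC -2.09), Tmem126b (LFC -1.93), a complex I assembly factor with 419, 466 and 390 counts against 137, 109 and 86.7, and Sdhaf1 (LFC -1.51). The library total alone gave 4 higher and 30 lower and a median LFC of -0.39.

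Of 30 genes for mitochondrial DNA replication, transcription and RNA processing, 9 were higher and 9 lower, and 4 and 10 with the library total alone, which turned the median LFC from 0.14 to -0.19. The median was -0.02 without FeSO4/PBS mouse 1. Tbrg4 (LFC 1.41), Pde12 (LFC 1.24) and the mitochondrial poly(A) polymerase Mtpap (LFC 1.00) had the largest rises, and Mterf2 (LFC -1.72), the polymerase accessory subunit Polg2 (LFC -1.64) and Angel2 (LFC -0.92) the largest falls. Of 19 electron carriers and feeding enzymes, 6 were higher and 2 lower, and 5 and 7 with the library total alone, which turned the median LFC from 0.11 to -0.22. It was 0.06 without FeSO4/PBS mouse 1. Gpd2, which passes electrons from glycerol 3-phosphate, had an LFC of 1.61 and Pdss1 and Coq7 of ubiquinone synthesis 1.40 and 1.08, while Chdh (LFC -1.33) and Coq9 (LFC -0.41) fell.

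Of 17 tested regulators of OXPHOS genes, 7 were higher and 4 were lower after FeSO4 (5 and 4 with the library total alone). Pprc1, a relative of the coactivator PGC-1alpha, had 219, 323 and 254 counts in NaCl/PBS mice and 1339, 985 and 1065 in FeSO4/PBS mice. Its LFC was 2.09 (SE 0.15, edgeR FDR 1.5e-07). Nrip1 (LFC 1.64) and Hif1a (LFC 1.57) followed. The nuclear receptors Ppara (LFC -1.09), Thrb (LFC -1.06) and Esrra (LFC -0.79) fell. Ppargc1a, the gene of PGC-1alpha, had 264, 220 and 308 counts in NaCl/PBS mice and 99.8, 704 and 420 in FeSO4/PBS mice. Without FeSO4/PBS mouse 1, Ppargc1a (LFC 1.10, edgeR FDR 0.0025) and Ppargc1b (LFC 1.28, edgeR FDR 0.0038) were called higher. Among the factors of the searched motifs, Nrf1 (LFC 0.71), Gabpb1 (LFC 1.53) and Yy1 (LFC 0.35) were called higher in that fit. Esrra (LFC -1.12) was lower there, and Gabpa (LFC 0.19, edgeR FDR 0.21) was not called. DEX in mice without iron raised Pprc1 to 500, 515 and 535 counts (LFC 0.96, edgeR FDR 0.00069), and the interaction was -1.47 (edgeR FDR 0.0011). Cycs, the mobile carrier cytochrome c, showed the same order, with an LFC of 0.66 after FeSO4, of 0.54 after DEX and an interaction of -0.67 (edgeR FDR 0.043). Pprc1, Nrip1, Hif1a, Ppara, Thrb, Esrra and Cycs kept their direction with the library total alone, but the interaction of Cycs lost its call there (edgeR FDR 0.067).

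In the other comparisons these lists held fewer calls, except that the regulators had as many in FeSO4/DEX against NaCl/DEX mice. DEX in NaCl mice raised 1 assembly factor (Coa6, LFC 1.03) and 2 genes of mitochondrial DNA expression (Trmt10c, LFC 0.78, and Elac2, LFC 0.42). It also raised 1 regulator (Pprc1) and 1 carrier (Cycs), and lowered 1 regulator (Sp1, LFC -0.49). Over all genes 6.5% were higher and 7.15% lower. With the library total alone 3 assembly factors and 2 genes of mitochondrial DNA expression were lower, and 1 gene of each list was higher. None of the 4 lists had a gene called for DEX in FeSO4 mice by edgeR. At an unadjusted p under 0.05 there were 4 assembly factors, 3 genes of mitochondrial DNA expression, 2 regulators and 0 carriers. Over all genes, 900 of 13857 had such a p. In FeSO4/DEX against NaCl/DEX mice, 4 assembly factors were higher and 14 lower, as were 5 and 9 genes of mitochondrial DNA expression. For regulators these counts were 7 and 4, and for carriers 4 and 3. Over all genes 22.4% were higher and 20.9% lower in this comparison. For the same lists, the library total alone gave 3 and 26, 1 and 13, 5 and 4, and 4 and 6. The interaction was called for 1 gene of each list, all lower, namely Foxred1 (LFC -0.84), Trmt10c (LFC -1.18), Pprc1 and Cycs. Over all genes 6.18% were called for the interaction in either direction.

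Markers of other cells moved with the iron load. The 7 neutrophil markers summed to 112 to 289 counts in NaCl/PBS and 722 to 882 in FeSO4/PBS mice, with 4 of 5 tested genes higher. In DEX-treated mice the sums were 74.5 to 113 without and 561 to 670 with iron. For the 8 markers of Kupffer cells and macrophages the sums were 7817 to 9137 and 4062 to 4827, with 7 of 8 lower, and with DEX 6973 to 8165 and 3417 to 5593.

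The hepatocyte markers moved with the members. After FeSO4, 4 of 8 were higher (Apoa1, Ttr, Tat and Fgb) and none lower, with a median LFC of 0.35, and of 0.03 with the library total alone. After DEX in NaCl mice their median was 0.21, with 2 of 8 higher. Their part in the members' shift was not tested.

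The sums of other lists overlapped between NaCl/PBS and FeSO4/PBS mice, at 50.5 to 87 and 53.4 to 71.4 for lymphocytes, 4653 to 5490 and 4992 to 6230 for endothelial cells, 4218 to 4347 and 4241 to 6021 for stellate cells, and 13.1 to 15.1 and 10.2 to 13.2 for striated muscle. Within these lists single genes moved in either direction, with 2 higher (Lyve1 and Cdh5) and 2 lower (Kdr and Clec4g) of 6 endothelial markers, 2 higher (Reln and Dcn) and 2 lower (Lrat and Col3a1) of 6 stellate markers, and 1 lower (Ms4a1) of 4 tested lymphocyte markers. Pancreatic acinar markers summed to 125 to 170 and 93.1 to 184, with 5 of 6 genes at 0 in every library. Adipose markers summed to 0 to 1.69 and 16.6 to 25.4, with Cidea the tested gene that was higher. Cidea passed the filter through the FeSO4 mice, so its call was partly set by the filter. The part of these cells in the OXPHOS values was not tested.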

How the data were processed

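Per the labels and the study's methods, the authors made stranded mRNA libraries (single-end), ran FastQC, used STAR 2.7.10b to align the reads to mm39, and deposited raw counts of uniquely mapped reads for 55414 Ensembl genes. The setting for strand is not given in the sources used here. Symbols and positions came from GENCODE M39 on GRCm39, which matched 54749 rows. From these counts, edgeR 4.0.16 in R 4.3.3 kept 13857 genes, computed TMM factors, and fitted 1 quasi-likelihood model of the 4 groups, with p-values adjusted by Benjamini-Hochberg (edgeR FDR); normalized counts are TMM-scaled. DESeq2 1.42.0, other scalings and filters and leaving out each mouse were alternatives. The fit was tested on simulated data. Library totals were 16335651 to 23827340 reads. The SE of an LFC came from the edgeR model of all 12 libraries, and an SD is over the 3 mice of a group.

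The members and lists were chosen with earlier results of these data known. Named members were all mitochondrial ones, per complex the 3 highest and 3 lowest LFCs after FeSO4 among called nuclear members with a mean count of at least 100, the members called for DEX or the interaction, and the lists of iron, haem and tissue isoform subunits. Ndufa1, Ndufa3, Ndufa10, Ndufs5, Ndufs6, Ndufv3, Atp5mc1, Uqcr11, Sdha, Atp5f1a and Cox7c, and the genes without reads, fall outside this rule and were chosen once values were known. One gene that the rule names is not reported here. Windows of 100 bases were searched in GRCm39 on both strands.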

Additional observations from a re-analysis of the deposited data

Results flagged for a closer look

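For both genes that differed between NaCl and FeSO4 mice in their response to DEX, the interaction term of the edgeR model decided. Atp5mg had an interaction LFC of -1.22 (SE 0.32, edgeR FDR 0.039) and mt-Nd6 of -0.88 (SE 0.23, edgeR FDR 0.038). With DESeq2's test and each scaling, the direction was the same. With the library total alone the call of Atp5mg was lost (edgeR FDR 0.063) and that of mt-Nd6 was kept (edgeR FDR 0.049). Reads of Atp5mg are shared with a copy on chromosome 5 over 57.43% of its windows, and the part of this copy in the difference was not tested.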

How the results depend on the processing

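After FeSO4 without DEX, 59 members were higher and 1 lower; these counts became 7 and 3 with the library total alone, and 1 and 0 when an LFC beyond 1 was also required. The other alternatives gave 51 to 64 members higher, and leaving out a mouse gave 39 to 68. After DEX in NaCl mice, 2 members were higher; this was 4 with DESeq2, 12 with only the libraries of the comparison, 1 with the library total alone, 0 with an LFC beyond 1 and 1 to 7 without a mouse. In FeSO4/DEX against NaCl/DEX mice, 12 were higher and 1 lower; the library total alone gave 0 and 4, an LFC beyond 1 gave 0 higher, and leaving out a mouse gave 0 to 26 higher and 1 to 2 lower. The count of lower members was 2 with DESeq2, with DESeq2's size factors and with at least 10 counts in every library. For the interaction, 2 members were called, 1 with the library total alone, 1 with an LFC beyond 1 and 0 to 2 without a mouse. Ndufa9 (-0.04) and Sdhd (-0.05) turned their direction after FeSO4 with the library total alone. For all these the cause was not tested, apart from the LFC minimum, which removes calls by construction.

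The mice were not treated as paired by the replicate numbers of the labels. The deviations of same-numbered mice correlated with r between -0.092 and 0.129, and in 2 of 18 pairs above 0.1. Such low values cannot tell whether same-numbered mice were handled together. With the replicate number as a block, 51 members were higher after FeSO4 and 1 was called for the interaction. The mitochondrially encoded share was 5.32%, 5.54%, 5.12% and 5.69% of all counts in NaCl/PBS, NaCl/DEX, FeSO4/PBS and FeSO4/DEX mice. Set against the protein-coding counts without the 20 most abundant genes, a smaller total by construction, the same counts came to 7.36%, 7.74%, 7.23% and 8.11%. Those 20 genes were not taken out of the mitochondrial counts, so these values are ratios and not shares of that total.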

Other observations

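The 2 mitochondrial ribosomal RNAs and 5 of 22 mitochondrial tRNA rows passed the filter on low counts, although libraries were made from poly(A) RNA; the tRNA rows were looked at after their values had been seen. mt-Rnr2, the large ribosomal RNA, had 11738, 7783 and 10269 normalized counts in NaCl/PBS mice and 61284, 90000 and 70944 in FeSO4/PBS mice (LFC 2.90, SE 0.26, edgeR FDR 8.8e-07). mt-Rnr1, the small one, had 9215, 7131 and 10703 against 25367, 19096 and 18539 (LFC 1.22, SE 0.24, edgeR FDR 0.00065). Both had nearly the same LFC in DEX-treated mice, 2.90 and 1.16. Of the tRNA rows, 4 were higher after FeSO4 without DEX and 4 with DEX, and mt-Ti was not called in either (LFC -0.03 and 0.70). Among the 4, mt-Tt had 1.01 to 9.66 and mt-Tp 2.88 to 7.52 normalized counts in NaCl mice. Both passed the filter through the FeSO4 mice, so their calls were partly set by the filter.

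mt-Tw, the tRNA right after mt-Nd2, showed the largest change of these rows. It had 112, 66.4 and 88 counts in NaCl/PBS mice, 68.7, 80.9 and 91.6 in NaCl/DEX mice, 1590, 1887 and 1338 in FeSO4/PBS mice and 1276, 2452 and 1926 in FeSO4/DEX mice. The FeSO4 mice lay far above all others, with an LFC of 4.16 without and 4.55 with DEX (edgeR FDR 4e-08 and 4.5e-08). mt-Tm, the tRNA just before mt-Nd2, had an LFC of 1.70. The LFC was 3.47 (SE 0.55) for mt-Tt and 2.45 (SE 0.56) for mt-Tp, on the opposite strand. These changes of mt-Tt and mt-Tp started from means of only 3.26 and 5.09 counts in NaCl/PBS mice. The annotated ends of mt-Tw and mt-Nd2 overlap by bases 4950 to 4951, and those of mt-Ti and mt-Nd1 by bases 3706 to 3707. After DEX, the LFCs of mt-Rnr1 and mt-Rnr2 were 0.20 and 0.22 in NaCl mice and 0.14 and 0.22 in FeSO4 mice, with overlapping groups.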
